A study of Homo sapiens with 18 samples.

Results

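The comparison described here sets 3 libraries of BrM3 cells against 3 libraries of LM2 cells, all expressing the control hairpin, and these are 6 of the 18 libraries of the series. The libraries were chosen by the columns of the deposited count table that hold the control (shCtrl) replicates of the 2 lines. Both derive from the established line MDA-MB-231, which came from a human triple-negative breast cancer and has mesenchymal features. LM2 cells are a population selected in mice for colonies in the lung. BrM3 cells were made from the brain-selected population BrM2 by a further round of selection in mice. The titles of the samples say BrM and LM, the cell line labels say MDA-MB-231 BrM2 and MDA-MB-231 LM2, and the names BrM3 and LM2 of the study are used here. The cells of both groups carried shCtrl in the DOX-inducible vector pINDUCER10 and were kept in DMEM with 10% FBS and DOX (doxycycline) at 1 μg/mL for 3 days, so neither group is untreated. The remaining 12 libraries are shWDR5 libraries of both lines, which lower WDR5, and shCtrl and shWDR5 libraries of the bone-selected line BoM. The study was built around WDR5, and the shCtrl libraries allow the question of how the lung-selected and the brain-selected line differ before WDR5 is lowered.

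Cancer cells that reach an organ must leave the vessels, attach to a foreign matrix, and grow among resident cells. Genes for secreted proteases, matrix proteins, adhesion receptors, chemokine receptors and growth factors are known from earlier work on MDA-MB-231 derivatives as genes that favor colonization of the lung, the brain or the bone. A line that is selected in an animal passes through few surviving cells, and it carries the genome and chromatin state of those cells as well as whatever the organ selected for. Each tropism is represented here by a single line, so a difference between BrM3 and LM2 cannot be told apart from a difference between any 2 selected sublines.

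Total counts on genes ranged from 36989874 to 47146239 in the BrM3 libraries and from 25472903 to 119667013 in the LM2 libraries. On log2 CPM (counts per 1000000), Pearson's r across genes was 0.992 to 0.997 between BrM3 replicates and 0.980 to 0.995 between LM2 replicates, and it was 0.923 to 0.937 between any BrM3 and any LM2 library. The source material labels name another organ than the titles for 5 of the 6 libraries and were not used. The 12 genes listed as high in MDA-MB-231, such as VIM and CD44, summed to 7924 to 8030 CPM in BrM3 and 8320 to 8609 CPM in LM2. Leukocyte genes summed to at most 6.34 CPM in any of the 6 libraries. Replicates differed among themselves in a way that followed the GC content of genes. Spearman's correlation of a library's deviation from its group mean against GC lay between −0.78 and 0.75. The fold change between the lines had a Spearman's correlation of 0.0075 with GC. The replicates come from different passages of a line, so p-values measure the spread between cultures of 1 line.

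BrM3 and LM2 control cells differed widely. Of 12160 tested genes, 5788 were called at an adjusted p under 0.05 (47.6%), 2941 of them higher in BrM3 (24.2%) and 2847 higher in LM2 (23.4%), by edgeR's quasi-likelihood test with Benjamini-Hochberg adjustment. At least 2-fold differences were called for 1331 genes (10.9%), with 692 higher in BrM3 (5.69%) and 639 higher in LM2 (5.25%). Most differences were small, and tested genes had a median absolute log2 fold change of 0.33. The large ones were more often on the BrM3 side, with 267 called genes at least 4-fold higher in BrM3 and 176 at least 4-fold higher in LM2. The 3 libraries of each line did not overlap for 58.8% of the tested genes, so the absence of overlap alone does not set a gene apart. Counts of called list members below are likewise to be read against the shares called over all tested genes. All fold changes below are BrM3 over LM2 on the log2 scale, positive where BrM3 was higher, with the standard error (SE) of the fit, and levels are CPM with the SD over n = 3 libraries.

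**Figure D1:**
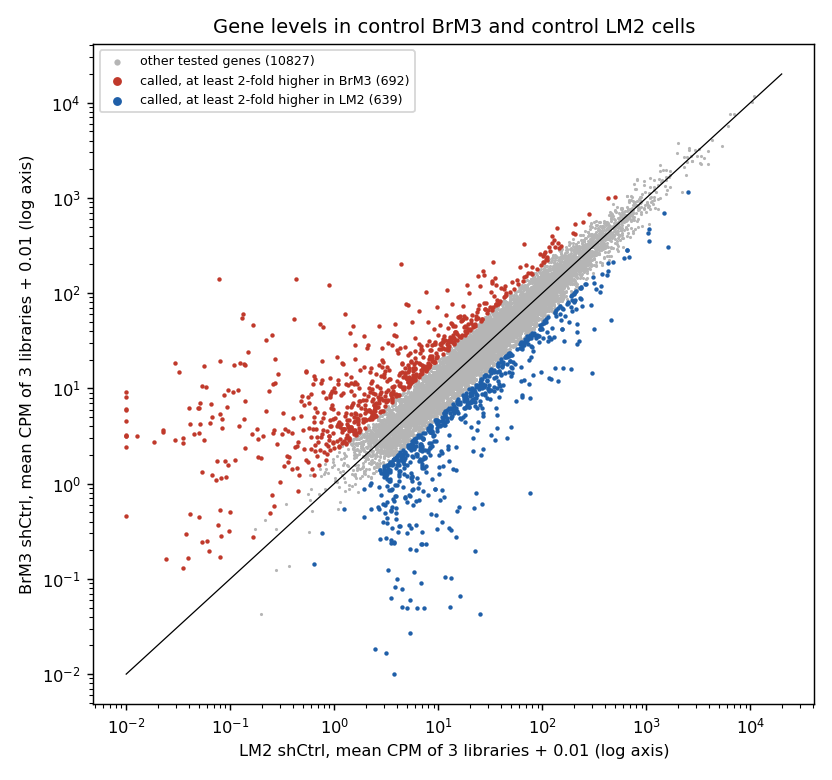
Each point is a tested gene, with its mean CPM in the 3 LM2 shCtrl libraries on the x axis and in the 3 BrM3 shCtrl libraries on the y axis, both log axes after adding 0.01, except 2 genes that are not drawn. The 692 genes called at least 2-fold higher in BrM3 (red) and the 639 called at least 2-fold higher in LM2 (blue) flank the line of equal levels, and the far left column holds genes with 0 counts in LM2.

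The same lines were compared in libraries that share no sample with these, the 3 BrM3 and 3 LM2 libraries with shWDR5. Both comparisons come from a single fit of all 18 libraries, so they share its filter and its estimate of spread. In them 50.2% of the tested genes were called. Of the 2941 genes higher in control BrM3, 2923 had the same sign and 2621 (89.1%) were called in the same direction, and these made up 84.8% of the 3090 genes called higher in BrM3 with shWDR5 (25.4% of those tested). Of the 2847 genes higher in control LM2, 2840 had the same sign and 2522 (88.6%) were called in the same direction, 83.8% of the 3011 called higher in LM2 with shWDR5 (24.8% of those tested). Among differences of at least 2-fold, 669 of 692 and 637 of 639 were called again. A test of whether the line difference itself differed between the hairpins called 1 of 12160 genes, with 361 at an unadjusted p under 0.05 and 18 by DESeq2, so for nearly all genes no change of the line difference with the hairpin was detected.

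The protein-coding genes with the highest fitted fold changes in BrM3 were nearly silent in LM2. TUBA3C, which encodes an alpha-tubulin of testis (chr13:19173772-19181824), had 129, 161 and 133 CPM in the BrM3 libraries and 0.188, 0 and 0.0162 CPM in the LM2 libraries, where it had 7 counts in all (log2 fold change 11.88 ± 0.42, edgeR adjusted p = 4.76e-12). Of its 50-base stretches, 16.9% also occur in transcripts of other genes, mostly TUBA3D, so its reads may be shared. The next 7 had 0 counts in every LM2 library, so their fitted folds depend on the prior count, only lower bounds can be given, and their order among genes with few LM2 counts is not established. TMEM47, a tight-junction associated membrane protein gene on the X chromosome (chrX:34627075-34657285), had 9.54, 8.77 and 9.11 CPM in BrM3, at least 639.8-fold higher than the level that 3 counts over the LM2 libraries would give. CSMD1, a large complement-control membrane protein gene, was at 8.15 ± 0.307 CPM and SLITRK2, a neuronal adhesion gene that shapes synapses, at 5.91 ± 0.268 CPM in BrM3, at least 567-fold and 412-fold higher on the same floor. ANO5, ZNF716, ZNF98 and CYP7B1, an oxysterol hydroxylase gene, lay between 3.12 and 4.48 CPM in BrM3. ZNF98 shares 41% of its 50-base stretches with other genes, mainly ZNF492.

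The 4 further genes with the smallest p-values were all well expressed in BrM3. THBS2, the secreted matrix protein thrombospondin-2 (chr6:169215780-169254050), had 110.2, 134 and 122 CPM in the BrM3 libraries and 0.79, 0.928 and 0.948 CPM in the LM2 libraries (log2 fold change 7.07 ± 0.20, edgeR adjusted p = 1.31e-13). CXCR4, the receptor for the chemokine CXCL12 (chr2:136114349-136119177), had 53.1, 43.2 and 45.9 CPM in BrM3 and 0.978, 0.725 and 0.47 CPM in LM2 (log2 fold change 6.18 ± 0.18, edgeR adjusted p = 1.31e-13). The rule that chose these genes required no overlap, and the lowest BrM3 library was far above the highest LM2 library for both. AMOT, the angiomotin scaffold of tight junctions and YAP control, was at 36.2 ± 0.868 CPM in BrM3 and 0.241 ± 0.0252 CPM in LM2. GNGT2, a G-protein gamma subunit gene, was at 24.3 ± 1.17 and 0.139 ± 0.0522 CPM. With shWDR5 the log2 fold changes of these 4 genes were 7.33, 6.36, 6.84 and 7.55.

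In LM2 the extreme was MAGEB2, a cancer-testis antigen gene on the X chromosome (chrX:30215563-30220089), with 27.5, 24.2 and 24.5 CPM in the LM2 libraries and 0.0203, 0.0256 and 0.0515 CPM in the BrM3 libraries (log2 fold change −9.52 ± 0.28, edgeR adjusted p = 1.31e-13). SHH, the Sonic hedgehog morphogen (chr7:155799980-155812463), had 18.5, 24.1 and 25.1 CPM in LM2 and 0.142, 0.205 and 0.206 CPM in BrM3 (log2 fold change −6.94 ± 0.30, edgeR adjusted p = 7.28e-12). Neither gene overlapped between the lines, as the rule that chose them required. SYNDIG1, a synapse differentiation gene, was at 12.9 ± 2.28 CPM in LM2, PADI4, which converts arginine in histones to citrulline, at 13.3 ± 4.3 CPM, and SLC13A4, a sulfate transporter gene, at 11.5 ± 0.419 CPM. All 3 were under 0.2 CPM in each BrM3 library. TM4SF18 and IRX1, a homeobox factor gene, had only 2 and 1 counts over the BrM3 libraries, and their ratios of LM2 to BrM3 levels were 332 (95% interval 91.8 to 2747) and 372 (95% interval 66.6 to 14732), where the interval covers counting error only. KCTD15 was at 5.02 ± 1.1 CPM in LM2 and 0.0392 ± 0.013 CPM in BrM3.

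The 4 best supported genes on the LM2 side beyond these were expressed in both lines. TGFBI, a secreted matrix protein induced by TGF-β (chr5:136028988-136063818), had 273, 319 and 305 CPM in LM2 and 15.4, 14.9 and 13.5 CPM in BrM3 (log2 fold change −4.35 ± 0.16, edgeR adjusted p = 7.13e-13). PMEPA1, another TGF-β target that restrains the SMAD signal, had 124, 155 and 148 CPM in LM2 and 12.2, 12.5 and 11.4 CPM in BrM3 (log2 fold change −3.56 ± 0.12, edgeR adjusted p = 3.1e-13). LM2 was above BrM3 in every library for both, as the rule that chose them required. DLC1, a GTPase-activating protein, was at 157 ± 16.3 CPM in LM2 and 16.5 ± 0.399 CPM in BrM3, and GPR176, an orphan G-protein-coupled receptor, at 27.2 ± 1.93 and 2.29 ± 0.427 CPM.

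**Figure D2:**
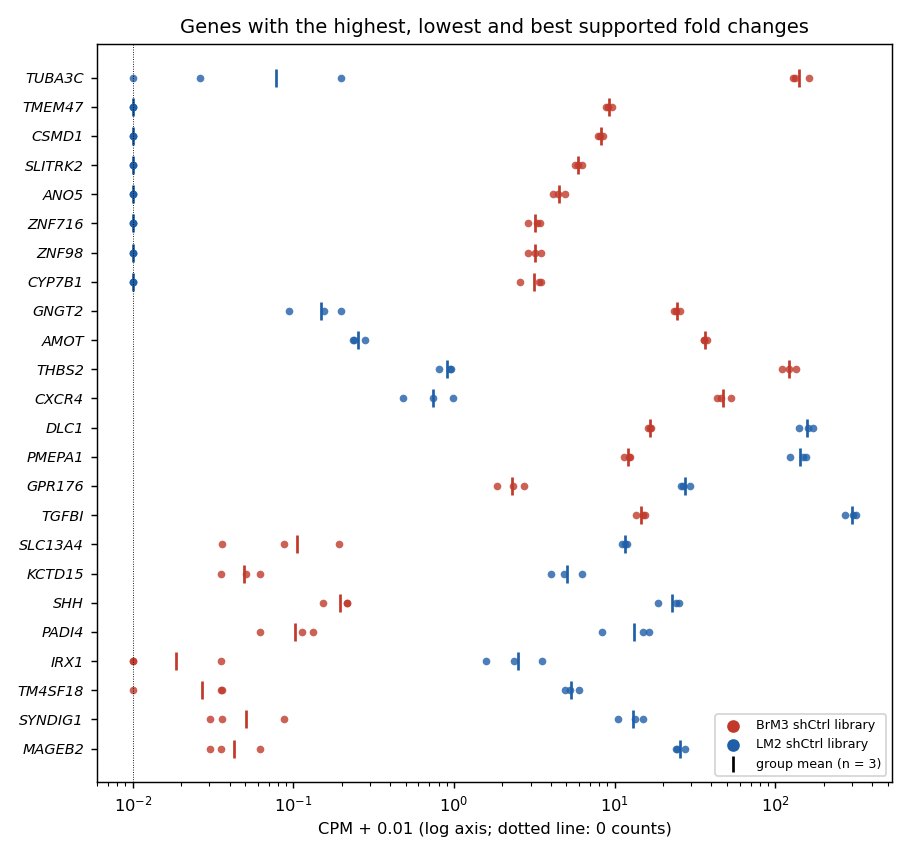
CPM plus 0.01 (log axis) of the 24 genes with the highest and lowest fold changes and the smallest p-values, with 1 point for each of the 3 BrM3 (red) and 3 LM2 (blue) shCtrl libraries and a tick at each group mean. The dotted line marks 0 counts, where the LM2 points of 7 genes lie. No gene has overlapping groups, which the rule that chose the genes required.

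A gene was listed as present in a line at 1 CPM or more in each of its 3 libraries and as absent under 0.1 CPM in each. By this description 57 genes were present in BrM3 and absent in LM2, and 27 were present in LM2 and absent in BrM3. Of the 57, 12 lie on the X chromosome, among them HS6ST2, TMEM47 and SLITRK2, and of the 27, 1 does, MAGEB2. Of the 12160 tested genes 434 lie on the X chromosome, and only 29 of the 57 and 13 of the 27 were tested. The same line was present and the same line absent in the shWDR5 libraries for 45 of the 57 and 15 of the 27. These counts depend on the limits and on depth. In BrM3 shWDR5 replicate 1, 2 counts gave 0.114 CPM, so TM4SF18 and KCTD15 were not absent there. In LM2 shWDR5 replicate 3, 3 counts gave 0.168 CPM, as for GPC4, and MPZL3 fell just short of present at 0.897 CPM. A gene that missed a limit thus need not have lost its difference. In the BoM control libraries, by the same limits, 16 of the 57 were present, 8 absent and 33 neither, and 0 of the 27 were present, 8 absent and 19 neither. HAPLN1, which links hyaluronan to proteoglycans, was the highest of the 57, with 18.4, 19.7 and 20.5 CPM in BrM3 and 0.0752, 0.0675 and 0.0648 CPM in LM2. HS6ST2, a heparan sulfate 6-O-sulfotransferase, had 17.8, 17.2 and 20.03 CPM in BrM3 and 0, 0.0169 and 0.0405 CPM in LM2, GLB1L3 was at 14.9 CPM and CACNG7, a calcium channel gamma subunit, at 7.01 CPM in BrM3. On the LM2 side MAGEB2 was followed by the noncoding gene LINC01234 at 16.3 ± 0.49 CPM.

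Mammalian promoters fall into those rich and those poor in CG dinucleotides, the site of DNA methylation, and the promoters of the genes on these lists were read for them. The windows run from 250 bases before to 50 bases after the gene's start in RefSeq (GRCh38.p14), and the letters CG read the same on both strands. The promoters of the 2 highest protein-coding genes present in BrM3 and absent in LM2, and of 2 with the opposite pattern, are printed 5′ to 3′, with each CG in capitals. Of the latter, MAGEB2 was the highest, while TM4SF18 at 5.35 CPM in LM2 ranked below SYNDIG1 and COL1A2 and is only an example.
HAPLN1: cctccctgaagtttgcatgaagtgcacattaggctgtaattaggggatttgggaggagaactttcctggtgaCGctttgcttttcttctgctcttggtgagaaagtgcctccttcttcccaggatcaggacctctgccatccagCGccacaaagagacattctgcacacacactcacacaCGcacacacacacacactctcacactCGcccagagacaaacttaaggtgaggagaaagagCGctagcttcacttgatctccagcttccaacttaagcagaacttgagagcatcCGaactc
HS6ST2: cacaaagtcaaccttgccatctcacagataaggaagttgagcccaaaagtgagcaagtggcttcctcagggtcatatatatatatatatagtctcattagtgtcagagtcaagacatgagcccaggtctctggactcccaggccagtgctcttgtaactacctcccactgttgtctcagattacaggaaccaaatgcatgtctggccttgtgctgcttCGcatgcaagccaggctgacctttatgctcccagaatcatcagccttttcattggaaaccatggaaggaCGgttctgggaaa
MAGEB2: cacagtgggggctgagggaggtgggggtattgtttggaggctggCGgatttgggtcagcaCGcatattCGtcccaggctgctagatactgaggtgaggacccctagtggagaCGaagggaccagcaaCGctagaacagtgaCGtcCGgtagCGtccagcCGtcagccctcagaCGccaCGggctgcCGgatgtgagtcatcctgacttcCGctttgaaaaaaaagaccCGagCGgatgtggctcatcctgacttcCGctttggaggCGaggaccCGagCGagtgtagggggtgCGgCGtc
TM4SF18: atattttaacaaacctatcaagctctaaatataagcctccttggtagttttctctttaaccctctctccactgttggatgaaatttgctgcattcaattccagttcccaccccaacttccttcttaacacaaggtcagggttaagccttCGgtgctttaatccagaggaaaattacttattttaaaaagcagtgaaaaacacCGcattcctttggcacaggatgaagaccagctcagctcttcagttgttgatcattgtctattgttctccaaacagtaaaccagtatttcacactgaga
The window of HAPLN1 (chr5:83720806-83721105, minus strand) holds 6 CG, that of HS6ST2 (chrX:132961321-132961620, minus strand) 2, that of MAGEB2 (chrX:30215313-30215612, plus strand) 21 and that of TM4SF18 (chr3:149333587-149333886, minus strand) 2. Over the 9566 tested genes with a window in the table the median was 27 CG, and 83.7% had 15 or more. Over all 35116 promoters in the table the median was 14 CG, and 48.9% had 15 or more. Among the genes present in BrM3 and absent in LM2, 34 of 57 had a window, with a median of 14.5 CG and 50% at 15 or more. Among those present in LM2 and absent in BrM3, 16 of 27 had a window, with a median of 9 CG and 43.8% at 15 or more. Only 29 of the 57 and 13 of the 27 genes passed the filter on low counts, and DNA methylation was not measured.

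Genes known from metastasis models of MDA-MB-231 sorted only in part by the organ each line was selected in. Of 20 tested genes of the lung list, 10 were higher in LM2 and 3 in BrM3, with a median log2 fold change of −0.95 against 0.0084 over all tested genes. The lung list is in part made of genes that were first found by comparing LM2-type cells with their parent, so its direction in LM2 is not independent evidence. VCAM1, an adhesion receptor for leukocyte integrins, had 14.4, 10.5 and 13.2 CPM in LM2 and 0.427, 0.205 and 0.36 CPM in BrM3 (log2 fold change −5.23 ± 0.27, edgeR adjusted p = 6.11e-11). MMP2, a gelatinase that opens basement membrane, had 12, 17.2 and 15.99 CPM in LM2 and 0.651, 0.639 and 0.232 CPM in BrM3 (log2 fold change −4.87 ± 0.36, edgeR adjusted p = 6.06e-09). EREG, the EGF receptor ligand epiregulin, had 85.7, 61.9 and 79.8 CPM in LM2 and 7.44, 7.95 and 8.21 CPM in BrM3 (log2 fold change −3.27 ± 0.15, edgeR adjusted p = 9.93e-12). LM2 was the higher line in every library for these 3. TNC and SPARC, secreted matrix proteins, were at 359 ± 49.6 and 370 ± 5.13 CPM in LM2 and 103 ± 7.2 and 118 ± 4.52 CPM in BrM3.

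Other lung list genes went the opposite way or were not called. MMP1, the interstitial collagenase, was the most abundant of them, with 684, 706 and 661 CPM in BrM3 and 337, 226 and 280.4 CPM in LM2 (log2 fold change 1.28 ± 0.18, edgeR adjusted p = 2.01e-05). NEDD9, a scaffold of focal adhesions, had a log2 fold change of 3.20 and ID3 of 0.89, both higher in BrM3. ID1, an inhibitor of differentiation factors, was called higher in LM2 (log2 fold change −0.97 ± 0.32, edgeR adjusted p = 0.019), and without BrM3 replicate 1 or 3 or LM2 replicate 3 its adjusted p was 0.0924, 0.0671 and 0.104. The chemokine CXCL1 was not called (log2 fold change −0.97 ± 0.43, edgeR adjusted p = 0.0717), but without LM2 replicate 2 it had an adjusted p of 0.0289. PTGS2, the prostaglandin synthase COX-2, and IL13RA2, a decoy receptor for IL-13, had log2 fold changes of −0.41 ± 0.27 and −0.10 ± 0.16 and edgeR adjusted p of 0.227 and 0.622.

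Of 21 tested genes of the brain list, 7 were higher in BrM3 and 9 in LM2 (median log2 fold change −0.16). This list holds genes tied to brain colonization of MDA-MB-231 derivatives, and BrM3 is such a derivative. A member that was higher in BrM3 is therefore not independent evidence either. ST6GALNAC5, a sialyltransferase linked to passage of the blood-brain barrier, had 7.22, 6.95 and 6.64 CPM in BrM3 and 5.12, 2.88 and 3.48 CPM in LM2 (log2 fold change 0.89 ± 0.16, edgeR adjusted p = 0.000154). SERPINB2 and SERPINI1, inhibitors of plasminogen activators, the latter also called neuroserpin, were at 8.33 ± 0.182 and 6.35 ± 0.15 CPM in BrM3 and 2.09 ± 0.764 and 1.32 ± 0.191 CPM in LM2. These 3 genes did not overlap between the lines. HBEGF, an EGF receptor ligand of the same list, was at 100.1 ± 3.32 and 87.5 ± 6.53 CPM and was not called (edgeR adjusted p = 0.0752), but it passed without LM2 replicate 1 (adjusted p = 0.0423). LAMA4, the laminin α4 chain of vessel basement membrane, had 64.1, 66.3 and 62.6 CPM in LM2 and 7.83, 8.26 and 8.16 CPM in BrM3 (log2 fold change −2.99 ± 0.13, edgeR adjusted p = 8.71e-12). L1CAM, an adhesion molecule by which cells spread on capillaries, was at 111 ± 30.3 CPM in LM2 and 65.2 ± 5.87 CPM in BrM3 (edgeR adjusted p = 0.00135). CSF3, the granulocyte growth factor G-CSF, had 50.2, 58.3 and 121 CPM in LM2 and 0.529, 1.1 and 0.746 CPM in BrM3. These last 3 genes stand on the brain list and were higher in the lung line.

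Of 11 tested genes of the bone list, 7 were higher in BrM3 and 3 in LM2 (median log2 fold change 0.50). ADAMTS1, a secreted metalloprotease, had 194, 215 and 200.5 CPM in BrM3 and 6.06, 3.8 and 3.18 CPM in LM2 (log2 fold change 5.61 ± 0.25, edgeR adjusted p = 8.82e-12). FGF5 was at 70.7 ± 6.12 CPM in BrM3 and 9.78 ± 0.586 CPM in LM2, and FST, the activin antagonist follistatin, at 102 ± 11.5 and 31.9 ± 4.53 CPM. With CXCR4 and MMP1, 5 of the bone list genes were thus at least 2-fold higher in the brain line. CDH11, a mesenchymal cadherin, was at 23.1 ± 0.761 CPM in LM2 and 0.791 ± 0.136 CPM in BrM3, and IL11, an osteoclast-stimulating cytokine, at 202 ± 20.5 and 99.9 ± 19 CPM.

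**Figure D3:**
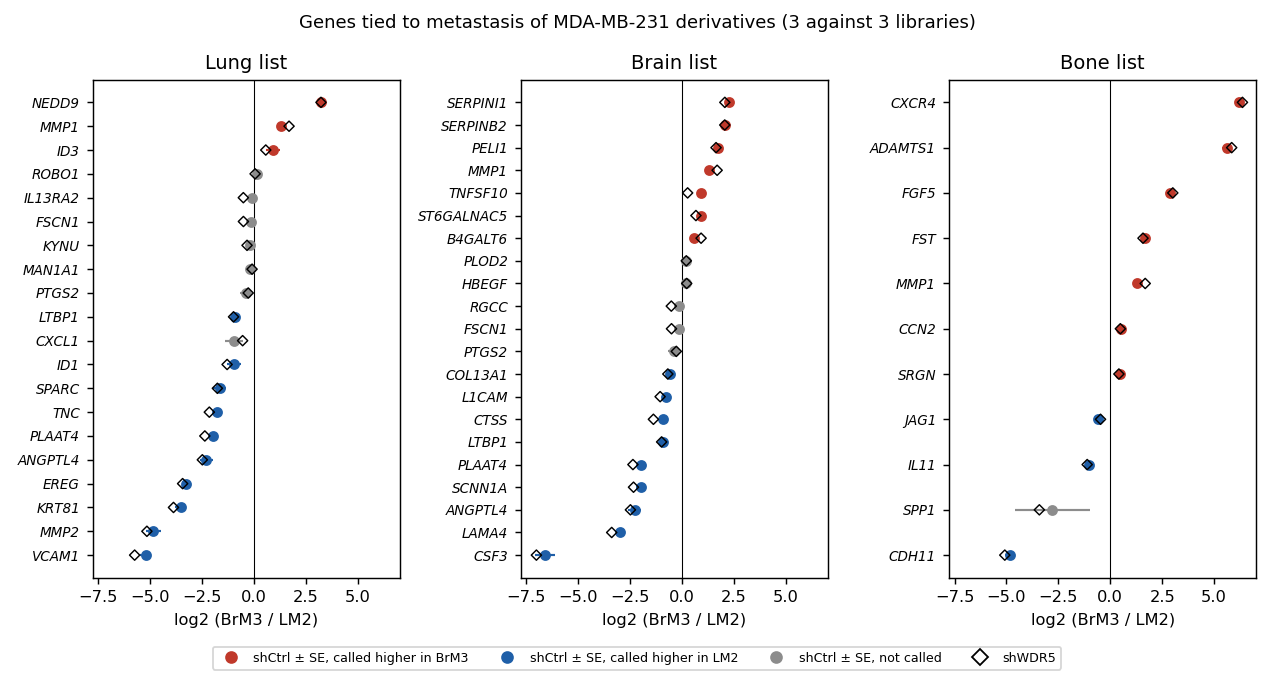
Log2 fold change of BrM3 over LM2 for the tested genes of the lung, brain and bone lists in shCtrl libraries (circles, bars ± SE; red and blue called, grey not called) and in shWDR5 libraries (open diamonds), 3 against 3 libraries each. Every called gene has its diamond on the same side of 0, and each of the 3 lists holds genes on both sides.

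More collagen chains were higher in LM2 than in BrM3. Of 21 tested collagen chains, 10 were higher in LM2 and 2 in BrM3 (median log2 fold change −0.54, with 8 and 1 at least 2-fold). The share called was 57.1%, against 47.6% of all tested genes. COL1A1, the main chain of type I collagen, had 35.02, 70.96 and 86.6 CPM in LM2 and 7.22, 9.51 and 8.7 CPM in BrM3 (log2 fold change −2.93 ± 0.29, edgeR adjusted p = 2.84e-07). Its partner COL1A2 was at 5.37 ± 1.07 CPM in LM2 and under 0.1 CPM in each BrM3 library. COL7A1, of anchoring fibrils, was at 132 ± 50.4 and 16.5 ± 4.24 CPM, and COL18A1, the source of endostatin, at 66.7 ± 41.7 and 12.3 ± 4.22 CPM, with LM2 replicate 1 the lowest LM2 library for all 4 chains. The 9 genes listed as fibroblast markers, which include COL1A1 and COL1A2, summed to 43.6 to 99.1 CPM in LM2 and 10.2 to 12.6 CPM in BrM3, with 4 and 3 of them under 0.1 CPM in every library of the line, and their part in the result was not tested. Of the chains higher in BrM3, COL8A1 had a log2 fold change of 1.80. Among 21 other matrix glycoproteins 12 were higher in LM2 and 6 in BrM3 (median −0.60). SPOCK1, a testican, was at 21.7 ± 2.29 CPM in LM2 and 2.97 ± 0.37 CPM in BrM3, FBLN1, fibulin-1, at 38.6 ± 9.3 and 8.16 ± 1.18 CPM, and FN1, fibronectin, had a log2 fold change of −1.59. The 2 thrombospondins differed in direction, since THBS1 had a log2 fold change of −1.18 and THBS2, described above, of 7.07.

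Laminins and the integrins that bind matrix were called in both directions. Of 10 laminin chains, 5 were higher in LM2 and 3 in BrM3. LAMB1 was at 232 ± 12.5 CPM in LM2 and 88.3 ± 3.79 CPM in BrM3, LAMA5 at 240.3 ± 128 and 74 ± 25.2 CPM with a wide spread in LM2, and LAMA1 went the opposite way, at 4.94 ± 0.251 and 12.6 ± 1.32 CPM. Of 13 integrin subunits, 6 were higher in LM2 and 4 in BrM3. ITGB4, the laminin receptor subunit of hemidesmosomes, had 183, 368 and 395 CPM in LM2 and 36.8, 49.01 and 40.95 CPM in BrM3 (log2 fold change −2.90 ± 0.28, edgeR adjusted p = 2.14e-07). Its partner chain ITGA6 had a log2 fold change of 0.60, toward BrM3. ITGB8, which releases TGF-β, was at 8.01 ± 2.02 CPM in LM2 and 2.16 ± 0.154 CPM in BrM3, whereas ITGA10, a collagen receptor subunit, was at 4.18 ± 0.31 and 13.8 ± 0.279 CPM and ITGB2, the leukocyte subunit, at 4.89 ± 0.906 and 12.8 ± 2.23 CPM.

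Of 40 tested matrix proteases and inhibitors, 17 were higher in LM2 and 12 in BrM3, and the median log2 fold change was 0.03. LM2 had more MMP2 and MMP16, a membrane-type metalloprotease (26.2 ± 3.59 and 6.18 ± 0.241 CPM in LM2 and BrM3), more ADAMTS14, a procollagen-trimming enzyme (3.53 ± 1.72 and 0.0527 ± 0.0278 CPM), and more of the cathepsins CTSB, CTSK and CTSS (log2 fold changes −1.45, −1.12 and −0.91). BrM3 had more MMP1 and ADAMTS1. Among plasminogen system genes, named after their values were seen, log2 fold changes were 1.40 for the urokinase receptor PLAUR, 1.37 for the tissue activator PLAT and 2.06 for the inhibitor SERPINB2. Urokinase itself, PLAU, was not called (log2 fold change 0.21 ± 0.09).

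Cadherins were called in both directions. Of 96 listed, 18 were tested, and 10 of these were higher in LM2 and 3 in BrM3. Members tested only because a single line expresses them had to differ, so these counts describe the tested members and not the list of 96. The neuronal cadherins CDH18 and CDH10 were at 20.2 ± 1.99 and 3.04 ± 0.363 CPM in BrM3 and 0.259 ± 0.134 and 0.0251 ± 0.0434 CPM in LM2, and FAT3 had a log2 fold change of 4.001. CDH10 had 2 counts over the LM2 libraries, and the ratio of BrM3 to LM2 levels was 314 (95% interval 86.4 to 2606). In LM2, besides CDH11, 6 of the called genes were clustered protocadherins of chromosome 5, of which PCDHB13 was at 6.89 ± 0.242 CPM in LM2 and 0.304 ± 0.0582 CPM in BrM3. Clustered protocadherins are near copies of each other, and 24.2% of the 50-base stretches of PCDHB13 occur in other genes.

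Epithelial genes leaned to BrM3 and mesenchymal genes to LM2, with exceptions in both lists. Of 11 tested epithelial junction genes, 5 were higher in BrM3 and 2 in LM2 (median log2 fold change 0.56). The tight-junction claudins CLDN1 and CLDN7 were at 8.63 ± 0.449 and 21.1 ± 1.86 CPM in BrM3 and 1.93 ± 0.253 and 8.25 ± 0.476 CPM in LM2. ESRP2, an epithelial splicing regulator, was at 3.59 ± 0.501 and 1.38 ± 0.126 CPM, OCLN, occludin, at 12.2 ± 0.919 and 7.25 ± 0.934 CPM, and EPCAM at 9.67 ± 0.18 and 6.18 ± 0.756 CPM. The 10 luminal breast markers summed to 181 to 198 CPM in BrM3 and 130.4 to 163 CPM in LM2, with 1 and 2 of them under 0.1 CPM in every library of the line, and their part in the result was not tested. The junction genes named were all low, and the epithelial cadherin CDH1 did not pass the filter on low counts. Of 15 tested mesenchymal genes, 8 were higher in LM2 and 3 in BrM3 (median −0.29). In the epithelial and mesenchymal lists 63.6% and 73.3% were called, against 47.6% of all tested genes. S100A4, a calcium-binding protein tied to motility, had 466, 459 and 451 CPM in LM2 and 56.9, 53.4 and 45.9 CPM in BrM3 (log2 fold change −3.14 ± 0.12, edgeR adjusted p = 2.27e-12). The factors ZEB1 and PRRX1 had log2 fold changes of −0.72 and −1.04, while VIM, vimentin, was not called (log2 fold change 0.10 ± 0.10). TPM2, a tropomyosin, was higher in BrM3 at 36.6 ± 5.25 CPM against 9.95 ± 2.24 CPM.

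Keratins crossed that division. Of 9 tested, 4 were higher in LM2 and 2 in BrM3. The 4 were KRT7, KRT80, KRT81 and KRT86, which lie together at chr12:52168996-52309163, with KRT81 inside the span of KRT86. They are thus neighbors at 1 locus. KRT7, a simple-epithelial keratin, had 102, 131 and 126 CPM in LM2 and 12.2, 13.3 and 12.3 CPM in BrM3 (log2 fold change −3.25 ± 0.16, edgeR adjusted p = 4.29e-11). KRT81, a hair keratin of the lung list, was at 187 ± 54.9 and 16.1 ± 3.17 CPM, and 44.6% of its 50-base stretches occur in other genes, mainly KRT86. KRT18 and KRT19 were higher in BrM3, with log2 fold changes of 0.38 and 0.63, and KRT8 was not called (log2 fold change −0.01 ± 0.15). KRT19 had an adjusted p of 0.0167 by edgeR, and of 0.0677 without BrM3 replicate 2 and 0.079 without LM2 replicate 1.

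Neuronal genes were called in both directions. Of 16 tested neuronal and glial genes, 8 were higher in BrM3 and 5 in LM2 (median log2 fold change 0.43). NCAM2, a neural adhesion molecule, had 6.93, 5.7 and 6.2 CPM in BrM3 and 0.113, 0 and 0.0081 CPM in LM2 (log2 fold change 8.12 ± 0.50, edgeR adjusted p = 6.61e-10). GABRA3, a GABA receptor subunit, was at 1.17 ± 0.351 and 0.0817 ± 0.027 CPM, and GAD1, which makes GABA, had a log2 fold change of 1.04. In the opposite direction GFAP, the intermediate filament of astrocytes, was at 9.52 ± 0.662 CPM in LM2 and 2.78 ± 0.341 CPM in BrM3, and SNAP25, of the synaptic fusion machinery, at 6.93 ± 0.504 and 2.5 ± 0.246 CPM. The 10 genes listed as neuron and glia markers summed to 120 to 125 CPM in BrM3 and 120 to 128 CPM in LM2, and 5 of them were under 0.1 CPM in every library of each line. Of 42 tested axon guidance genes, which steer growing neurites and also tumor cells, 16 were higher in LM2 and 10 in BrM3. In the neuronal and the axon guidance lists 81.25% and 61.9% were called, against 47.6% of all tested genes. The repellent SEMA3A was at 35.9 ± 3.6 CPM in LM2 and 6.26 ± 0.555 CPM in BrM3. The semaphorin coreceptors NRP1 and NRP2 differed in direction (log2 fold changes −1.04 and 1.65). The plexins PLXNB1 and PLXNA4 were at 5.46 ± 1.24 and 4.01 ± 0.513 CPM in LM2 and 1.28 ± 0.303 and 0.965 ± 0.0776 CPM in BrM3.

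The list of inflammatory cytokines, which also holds other genes, leaned to LM2. Of 38 listed, 19 were tested, and 10 of these were higher in LM2 and 4 in BrM3 (median log2 fold change −0.74). The share called was 73.7%, against 47.6% of all tested genes. IL1B had 72.96, 51.6 and 101 CPM in LM2 and 13.3, 9.84 and 10.1 CPM in BrM3 (log2 fold change −2.76 ± 0.33, edgeR adjusted p = 2.65e-06), and IL6 had 11.3, 7.12 and 11.7 CPM in LM2 and 1.28, 1.2 and 1.29 CPM in BrM3 (log2 fold change −2.995 ± 0.27, edgeR adjusted p = 8.1e-08). CXCL8 and ICAM1, the latter an adhesion receptor and not a cytokine, had log2 fold changes of −1.19 and −1.71. Higher in BrM3 were IL24, an IL-10 family cytokine, at 20.3 ± 0.623 CPM against 1.59 ± 0.257 CPM, and the monocyte attractant CCL2 (log2 fold change 2.75). So were IL18 (log2 fold change 0.94) and BIRC3, an apoptosis inhibitor and not a cytokine (log2 fold change 0.88).

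Of 37 tested interferon-stimulated genes, 19 were higher in LM2 and 7 in BrM3 (median log2 fold change −0.39). The share called was 70.3%, against 47.6% of all tested genes. IFI27 was at 4.26 ± 0.302 CPM in LM2 and 0.353 ± 0.064 CPM in BrM3, OASL at 30.03 ± 3.01 and 9.75 ± 1.04 CPM and EPSTI1 at 7.89 ± 1.14 and 2.26 ± 0.13 CPM. OAS1, an antiviral enzyme of the same family as OASL, went the opposite way at 1.15 ± 0.12 and 4.25 ± 0.505 CPM, as did BST2, TRIM22 and IFITM1 (log2 fold changes 1.51, 1.49 and 1.33). The transcription factor STAT2 was not called (log2 fold change 0.10 ± 0.09). Of 18 tested genes of MHC class I presentation, 7 were higher in BrM3 and 6 in LM2. PSMB10 is among the 6 and lost its call without some single libraries. The chains HLA-B and B2M were slightly higher in LM2 (log2 fold changes −0.57 and −0.47), HLA-F was at 3.63 ± 0.62 CPM in LM2 and 0.677 ± 0.128 CPM in BrM3, and the peptide transporter TAP2 was at 68.03 ± 8.44 and 122 ± 5.03 CPM. Of 9 tested MHC class II genes, 5 were higher in BrM3 and 2 in LM2. HLA-DRB5 is among the 5 and lost its call without some single libraries. In the class I and class II lists 72.2% and 77.8% were called, against 47.6% of all tested genes. HLA-DRA had 74.1, 73.04 and 71.9 CPM in BrM3 and 33.2, 36.97 and 42 CPM in LM2 (log2 fold change 0.96 ± 0.12, edgeR adjusted p = 4.02e-06), and the master regulator CIITA was not called (log2 fold change −0.30 ± 0.18). HLA genes are polymorphic near-copies, so reads may be split among them.

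TGF-β signals through SMAD factors and drives matrix synthesis, invasion and colonization in MDA-MB-231 derivatives. Of 33 tested genes of the TGF-β and BMP pathways, 15 were higher in LM2 and 8 in BrM3 (median log2 fold change −0.36). The share called was 69.7%, against 47.6% of all tested genes. Among ligands, TGFB3 was at 4.005 ± 0.465 CPM in LM2 and 1.57 ± 0.184 CPM in BrM3 and TGFB2 had a log2 fold change of −0.42, while TGFB1 (log2 fold change 1.02) and INHBB, an activin chain at 1.54 ± 0.226 and 11.2 ± 0.757 CPM, were higher in BrM3. Among receptors and SMADs, TGFBR1, SMAD2 and SMAD3 were higher in LM2 (log2 fold changes −0.76, −0.46 and −0.40). Among targets, PMEPA1 and TGFBI, described above, were over 10-fold higher in LM2, while CCN2 was higher in BrM3 (log2 fold change 0.50).

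Of 26 tested WNT genes, 8 were higher in BrM3 and 6 in LM2, a share of 53.8% called against 47.6% of all tested genes. DKK1, a secreted WNT inhibitor, had 327, 329 and 353 CPM in BrM3 and 140.2, 107 and 121 CPM in LM2 (log2 fold change 1.46 ± 0.12, edgeR adjusted p = 3.56e-08). WNT5A was at 5.78 ± 0.355 and 2.19 ± 0.684 CPM and the repressor TCF7L1 at 7.41 ± 0.527 and 2.27 ± 0.798 CPM. AXIN2, a feedback target, and the ligand WNT9A were higher in LM2 (log2 fold changes −1.28 and −1.38). Of 9 tested NOTCH genes, 4 were higher in LM2 and 1 in BrM3, a share of 55.6% called, near that 47.6%. The receptor NOTCH3 was at 3.49 ± 0.935 CPM in LM2 and 0.511 ± 0.127 CPM in BrM3, the target HES1 at 16.03 ± 2.4 and 6.86 ± 1.18 CPM and the ligand JAG1 at 120 ± 15.2 and 79.9 ± 1.31 CPM, and the exception was the coactivator MAML2 (log2 fold change 0.28 ± 0.11, edgeR adjusted p = 0.0439).

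Growth factors and receptor tyrosine kinases were called in both directions, 17 of 42 higher in BrM3 and 15 higher in LM2. At least 2-fold differences of this list numbered 10 in each direction. The receptor PDGFRB was at least 2-fold higher in LM2, and BrM3 had more of some others. FLT1, the VEGF receptor 1, had 16.2, 14.3 and 14.5 CPM in BrM3 and 0.489, 0.506 and 0.583 CPM in LM2 (log2 fold change 4.79 ± 0.24, edgeR adjusted p = 4.69e-11), FGFR4 was at 18.7 ± 4.45 and 1.18 ± 0.301 CPM, KDR, the VEGF receptor 2, at 17.9 ± 1.33 and 4.46 ± 0.355 CPM, and ERBB3 had a log2 fold change of 1.42. Of the EGF receptor ligands, LM2 had more EREG, TGFA, AREG and EGF (log2 fold changes −3.27, −1.86, −1.67 and −1.41), while HBEGF, described above, was not called (log2 fold change 0.19 ± 0.09), and the receptor EGFR itself was slightly higher in BrM3 (log2 fold change 0.46). IGFBP2, which binds insulin-like growth factors, was at 6.88 ± 2.5 CPM in LM2 and 0.0798 ± 0.0728 CPM in BrM3, while IGFBP1, IGFBP3 and IGFBP4 were higher in BrM3 (log2 fold changes 1.32, 1.23 and 0.96). FLT1 and KDR are also endothelial genes. The 8 endothelial markers summed to 21.4 to 23.6 CPM in BrM3 and 7.45 to 8.65 CPM in LM2, 3 and 2 of them were under 0.1 CPM in every library of BrM3 and of LM2, and PECAM1 was higher in LM2 (2.21 ± 0.0584 and 0.967 ± 0.119 CPM). Of 22 MAPK feedback genes, 10 were higher in LM2 and 5 in BrM3, with SPRY4 at 174 ± 7.72 and 77.4 ± 1.34 CPM in LM2 and BrM3 and DUSP6, the ERK phosphatase, in the opposite direction at 117 ± 9.36 and 215 ± 7.85 CPM.

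Cholesterol synthesis leaned to LM2. Of 24 tested genes 12 were called higher in LM2 and 0 in BrM3 by edgeR, and the median log2 fold change was −0.47. The share called was 50%, near the 47.6% of all tested genes, of which 23.4% were higher in LM2. At an unadjusted p under 0.05, 2 were higher in BrM3, and DESeq2 called 0 higher in BrM3 after adjustment. FDFT1, squalene synthase, had 159, 151 and 186 CPM in LM2 and 55.6, 60.5 and 56.9 CPM in BrM3 (log2 fold change −1.52 ± 0.13, edgeR adjusted p = 5.62e-08). MSMO1, a sterol methyl oxidase, was at 51.2 ± 4.57 and 22.5 ± 2.38 CPM. EBP, a sterol isomerase, was at 34.1 ± 2.68 and 12.8 ± 2.39 CPM, and 31.4% of its 50-base stretches occur in another annotated gene.

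Of 36 tested glycolysis and hypoxia genes, 18 were higher in LM2 and 4 in BrM3 (median log2 fold change −0.30). CA9, a hypoxia-induced carbonic anhydrase, was at 5.31 ± 1.85 CPM in LM2 and 0.196 ± 0.0396 CPM in BrM3, ALDOC at 14.8 ± 4.69 and 1.37 ± 0.119 CPM and ANGPTL4 at 10.7 ± 3.93 and 2.2 ± 0.583 CPM. The hexokinases differed in direction, with HK1 at a log2 fold change of −0.78 and HK2 at 1.62. Of 30 tested NRF2 and detoxification genes, 16 were higher in LM2 and 5 in BrM3 (median −0.47), among them GSTP1, a glutathione transferase, with 114, 154 and 200.3 CPM in LM2 and 35.2, 48.3 and 42.96 CPM in BrM3, AKR1C3 at 40.3 ± 8.39 and 9.55 ± 0.225 CPM and the exporter ABCC3 at 23.7 ± 2.29 and 3.68 ± 0.18 CPM. The factor NFE2L2, which encodes NRF2, and its inhibitor KEAP1 were higher in BrM3 (log2 fold changes 0.39 and 0.60). In the glycolysis and NRF2 lists 61.1% and 70% were called, against 47.6% of all tested genes.

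Of 42 S phase genes, 16 were higher in LM2 and 3 in BrM3 (median log2 fold change −0.21), and of 39 mitotic genes, 12 and 5 (−0.16), with no member of either list called at least 2-fold apart. In these 2 lists 45.2% and 43.6% of members were called, near the 47.6% of all tested genes. CENPF was at 650 ± 86.8 CPM in LM2 and 403 ± 38.9 CPM in BrM3, and the proliferation marker MKI67 was not called (log2 fold change −0.17 ± 0.16). Of 78 nuclear genes of oxidative phosphorylation, 16 were higher in BrM3 and 6 in LM2 (median 0.04), and COX7B2, a germline isoform of complex IV, stood apart at 3.62 ± 0.106 CPM in BrM3 against 0.255 ± 0.281 CPM. Of 84 cytoplasmic ribosomal protein genes, 13 were higher in BrM3 and 11 in LM2 (median 0.02), and of 27 genes of the ATF4 and unfolded protein responses, 4 and 5. In the last 3 lists 28.2%, 28.6% and 33.3% of members were called.

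Cancer-testis antigens are germ cell genes of the X chromosome and elsewhere that are silent in most adult tissue and reappear in tumors. Of 99 listed, 14 were tested, and 11 of these were higher in BrM3 and 1 in LM2 (median log2 fold change 3.05). PAGE5 had 140.1, 142 and 139.7 CPM in BrM3 and 0.752, 0.337 and 0.178 CPM in LM2 (log2 fold change 8.76 ± 0.31, edgeR adjusted p = 7.08e-13). MAGEA11 was at 1.71 ± 0.161 and 0.0641 ± 0.0759 CPM and MAGEA6 at 8.33 ± 0.904 and 0.482 ± 0.303 CPM, where 53.7% of the 50-base stretches of MAGEA6 occur in other genes, mainly MAGEA3. MAGEB2, described above, was the exception. Members tested only because a single line expresses them had to differ, so these counts describe the tested members and not the list of 99. Of 3 tested HOX genes, HOXB9 and HOXC6 were higher in BrM3, at 34.8 ± 1.46 and 5.37 ± 0.0496 CPM against 13.1 ± 0.507 and 1.45 ± 0.223 CPM.

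Of 397 tested genes named ZNF, which encode zinc finger proteins that mostly repress transposons and other genes, 155 were higher in LM2 and 53 in BrM3 (median log2 fold change −0.22). The share called was 52.4%, near the 47.6% of all tested genes. On chromosome 19, 104 of 192 were higher in LM2 and 13 in BrM3 (median −0.46). On the other chromosomes 51 of 205 were higher in LM2 and 40 in BrM3. Against the direction of the family, ZNF257 and ZNF300 were at 10.5 ± 1.32 and 17.6 ± 0.948 CPM in BrM3 and 0.0432 ± 0.0609 and 0.129 ± 0.118 CPM in LM2. Of 2263 long noncoding genes named LINC, 100 were tested, and 65% of these were called. Among the 100, 39 were higher in BrM3 and 26 in LM2. LINC00648 was at 10.3 ± 0.558 CPM in BrM3 and 0.0486 ± 0.0556 CPM in LM2.

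**Figure D4:**
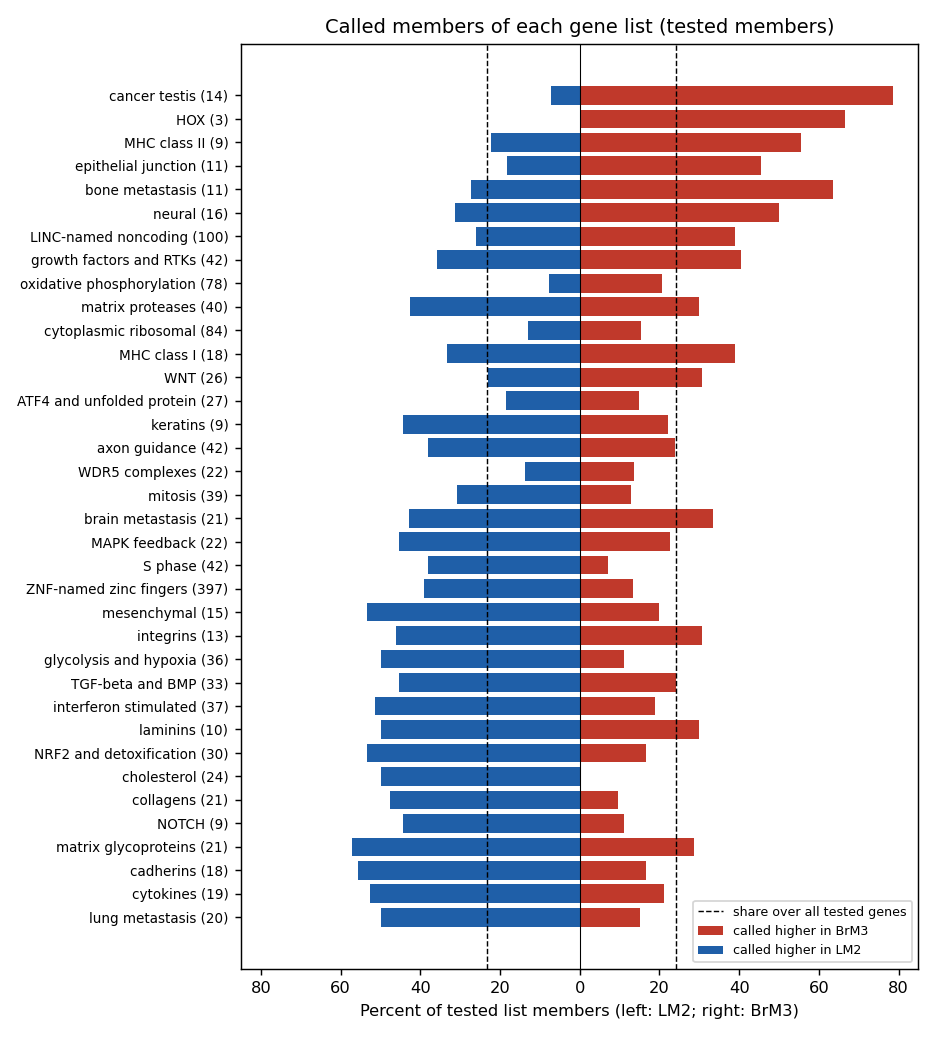
Percent of the tested members of each gene list (number tested in parentheses) that were called higher in BrM3 (red, right) or higher in LM2 (blue, left) in shCtrl libraries, with the lists in order of their median log2 fold change. The dashed lines mark the shares over all tested genes, 24.2% and 23.4%, and the cancer-testis and lung metastasis lists stand at the ends.

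WDR5, the target of the study's hairpin and a scaffold of histone methyltransferase and acetyltransferase complexes, was itself lower in control BrM3 cells. It had 85.1, 92.8 and 79.05 CPM in the BrM3 and 112, 127 and 133 CPM in the LM2 shCtrl libraries (log2 fold change −0.54 ± 0.13, edgeR adjusted p = 0.00286), and the libraries did not overlap. With shWDR5 it had 20.8, 21.2 and 23.4 CPM in BrM3 and 24.2, 24.3 and 20.4 CPM in LM2, below every shCtrl library of either line, as the labels of the hairpins give. Of 22 genes of WDR5 complexes and partners, 3 were higher in BrM3 and 3 in LM2, a share of 27.3% called against 47.6% of all tested genes. The 3 higher in BrM3 were MYC, a transcription factor that binds WDR5, at 163 ± 10.1 CPM against 83.7 ± 15.3 CPM, DPY30 at 61.03 ± 3.52 and 34.8 ± 2.89 CPM and CXXC1 at 37.1 ± 3.03 and 22.3 ± 6.08 CPM. The 3 higher in LM2 were WDR5 itself, WDR5B and WDR82 (log2 fold changes −0.54, −0.43 and −0.30). Of the 50-base stretches of DPY30, 51.6% also occur in transcripts of another gene, mainly MEMO1, so its reads may be shared. The methyltransferase genes KMT2A, KMT2B, KMT2C and KMT2D were not called (log2 fold changes −0.31, −0.12, −0.27 and −0.43).

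Genes that differed lay together along chromosomes. On chromosome 2, 54.9% of 833 tested genes were higher in BrM3 and 6.48% in LM2 (median log2 fold change 0.36). On chromosome 9, 7.85% of 484 were higher in BrM3 and 47.3% in LM2 (−0.34), and on chromosomes 13 and 15, 50.7% and 45.2% were higher in LM2 (−0.34 and −0.29). These shares compare with 24.2% and 23.4% over all tested genes. In windows of 41 neighboring tested genes, the median passed 0.3 in either direction in 22.7% of 11202 windows. Successive windows past 0.3 on the same side formed 13 runs of at least 60 genes, 7 higher in BrM3 and 6 higher in LM2, which together hold 1622 tested genes (13.3%). The runs were chosen by these medians, so their medians are a description. In the shWDR5 libraries, which the choice did not use, the median had the same sign in 13 of 13 runs and differed by at most 0.08.

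The run with the most genes on the LM2 side was chr9:113313222-137070557, with 191 tested genes, of which 134 were higher in LM2 and 4 in BrM3 (median log2 fold change −0.65, and −0.68 with shWDR5). WDR5 (chr9:134135365-134159968) and TNC lie in it, and the log2 fold change of WDR5, −0.54, is near the median of its neighbors. The run chr19:47475150-58302791 holds 186 tested genes, 110 higher in LM2 and 6 in BrM3 (−0.58 and −0.63), with its steepest window around ZNF528 among the zinc finger genes. The run chr15:75346955-96340263 held 63 genes higher in LM2 and 6 in BrM3 of 94 (−0.59 and −0.64), and chrX:41333348-54048958, which holds EBP and NDUFB11, held 53 and 3 of 66 (−0.89 and −0.81).

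On the BrM3 side the run with the most genes was chr2:26764284-86492716, with 260 tested genes, 173 higher in BrM3 and 11 in LM2 (median log2 fold change 0.47, and 0.50 with shWDR5), which includes DPY30 and EPCAM. The run chr6:31730581-41138727 held 75 genes higher in BrM3 and 4 in LM2 of 102 (0.70 and 0.71), among them the class II genes HLA-DRA, HLA-DMA and HLA-DMB and the transporter TAP2. The run chr8:103298433-144416844 held 77 and 7 of 118 (0.59 and 0.63) and includes MYC, whose log2 fold change was 0.96. The run chr12:82686880-112933219 held 86 and 7 of 126 (0.50 and 0.52), and chr19:12646511-18919387 held 69 and 4 of 114 (0.59 and 0.53). Genes inside a run did not all follow it, and NOTCH3, within the last, had a log2 fold change of −2.79, while FLT1, within a run of chromosome 13 higher in LM2, had 4.79. The DNA content of the lines was not measured here.

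**Figure D5:**
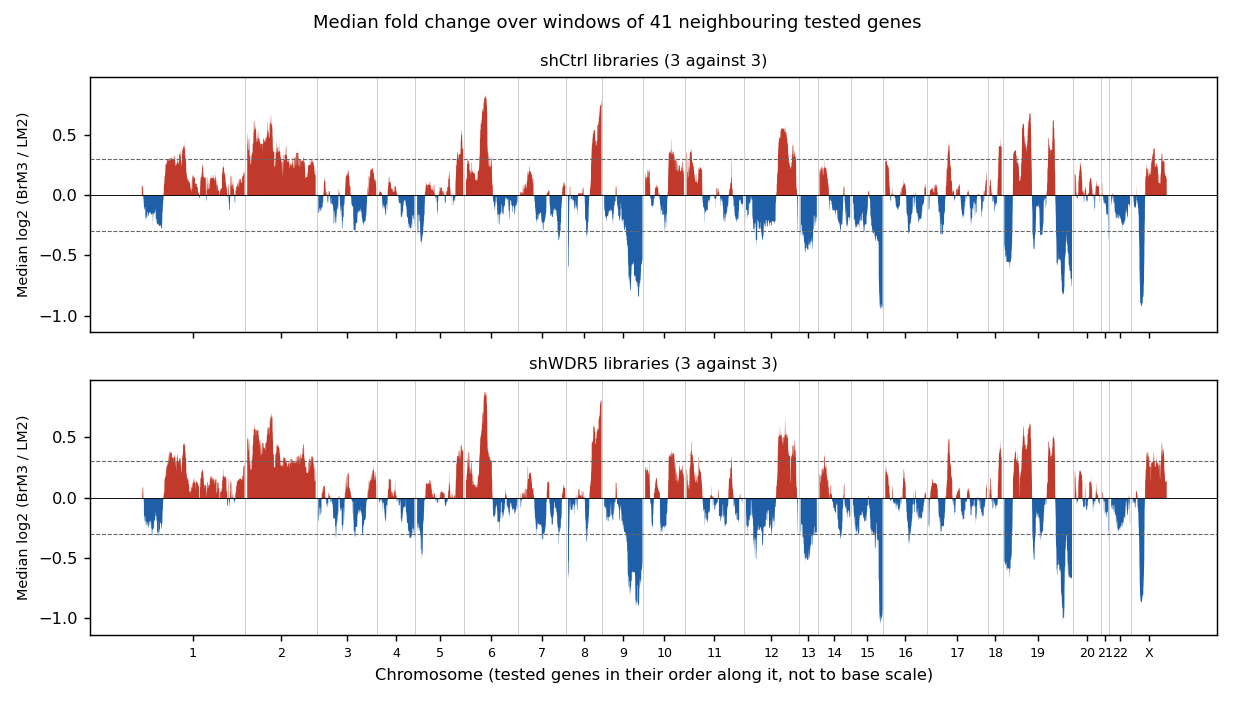
Median log2 fold change of BrM3 over LM2 in windows of 41 neighboring tested genes, in gene order along each chromosome, for the shCtrl libraries (top) and the shWDR5 libraries (bottom), with red above 0, blue below 0 and dashed lines at 0.3 and −0.3. The same blocks appear in both panels, with the deepest on the LM2 side on chromosomes 9, 15, 19 and X and the highest on the BrM3 side on chromosomes 6 and 8.

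The control libraries of BoM give a further point of reference, as levels side by side. CXCR4 was at 22.7 CPM in BoM, between its levels in BrM3 and LM2, and MMP1 was at 466 CPM, also between them. ADAMTS1 was at 238 CPM, near its BrM3 level. THBS2, at 1.03 CPM, and AMOT, at 1.31 CPM, were near their LM2 level. On the LM2 side TGFBI (13.7 CPM), PMEPA1 (7.56 CPM), VCAM1 (0.111 CPM) and LAMA4 (10.7 CPM) were near their BrM3 level in BoM, whereas CDH11 (49.8 CPM) was above both lines. Of the 692 genes at least 2-fold higher in BrM3, BoM was nearer to BrM3 for 443 and nearer to LM2 for 249 by mean log2 CPM. Of the 639 at least 2-fold higher in LM2, BoM was nearer to BrM3 for 491 and nearer to LM2 for 148.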

How the data were processed

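RNA-seq of MDA-MB-231 derivatives was analysed in 18 libraries of 6 groups, 3 libraries each, taken from the sample titles. The authors added spike-in RNA by cell number, made stranded mRNA libraries, sequenced paired ends, aligned them to hg38 with STAR (2.7.0, per the submitters' processing notes, which also name CASAVA 1.8.2) and deposited raw counts of reads for 58815 genes. The strand setting of the counting is not given in the sources used here, so genes that overlap on opposite strands are uncertain. The table holds 0 spike-in rows, so total RNA per cell was not analysed here and fold changes are relative to the library. A deposited table of the authors' own fold changes and adjusted p-values of shWDR5 over shCtrl was not used. All per-sample columns were used (0 left over), and 27 symbols written as dates were handled by gene ID.

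The criterion of HTSFilter was recomputed (100 thresholds from 1 to 200, highest Jaccard index at a normalized count of 139.7), which kept 12160 genes. They entered the quasi-likelihood fit of edgeR 4.0.16 under R 4.3.3 (TMM scaling, 12 residual degrees of freedom), with Benjamini-Hochberg adjustment over all tested genes and calls under 0.05. The SE is the log2 fold change over the square root of F. CPM is the count per 1000000 of the TMM-scaled total. For simulated counts of the BrM3 against LM2 comparison (12160 genes, 200 changed), edgeR recovered 46% of the log2 changes of 0.5, 94% of 1, 98% of 2 and 100% of 3, with 8 false calls. No replicate pair of the 2 groups agreed within sampling noise (chi-square per gene 11.4 to 88.7).

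Gene coordinates are those of GENCODE 44 on hg38, which holds 58472 of the gene IDs, and promoters those of RefSeq. The gene lists and the groups compared were chosen with earlier results of these data known. Genes named are the 8 highest and 8 lowest fold changes among called protein-coding genes with a mean of at least 1 CPM and no overlap, the 4 smallest p-values in each direction beyond those, up to 4 called members of each list with the largest fold change, preset metastasis genes, WDR5 and up to 6 genes present in BrM3 or LM2 and absent in the other. Other list members named were chosen after their values were seen. In any list, members that passed the filter only through the line where they are high had to differ. A few list members are not reported here. The X-inactivation transcripts and Y-linked genes were left out. Alternatives were DESeq2 1.42.0, its size factors in edgeR, filterByExpr (18428 genes), no filter (41236 genes), a replicate block, the 6 libraries alone, counts thinned to 17485841, GC offsets by loess, and leaving out each library. Intervals and floors of 3 counts cover counting error only.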

Additional observations from a re-analysis of the deposited data

Results flagged for a closer look

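A single gene had a line difference that itself differed between the hairpins by the interaction term. ARMCX2, an armadillo-repeat gene of the X chromosome, had 134, 131 and 134 CPM in the control BrM3 libraries and 31.6, 31.9 and 34.5 CPM in the control LM2 libraries, a log2 fold change of 2.03. With shWDR5 it had 102, 104 and 111 CPM in BrM3 and 16.2, 15.2 and 13.8 CPM in LM2, a log2 fold change of 2.81. The difference of the differences was 0.78 ± 0.12 (SE) on the log2 scale, with an adjusted p of 0.0419 by edgeR. BrM3 was above LM2 in every library with either hairpin. The interaction had an adjusted p of 4.9e-08 by DESeq2, 0.0957 with filterByExpr and 0.114 in thinned counts, so the call depends on these choices.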

How the results depend on the processing

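The counts of genes called in either direction moved by less than 1.5 times under every alternative. The direction of the 5788 called genes reversed for 0 of those still tested under any of them. At least 2-fold differences numbered 2829 with filterByExpr and 3488 with no filter, because more genes were tested. Without single libraries the called genes ranged from 4871 to 5430 (2438 to 2798 higher in BrM3, 2335 to 2632 higher in LM2), the 2-fold ones from 1304 to 1406, and those of the shWDR5 libraries from 5337 to 6062. Whether the replicate numbers of the titles pair the samples was not established, and the main fit did not pair them. Deviations of same-numbered control libraries were correlated at 0.69, 0.44 and −0.17. Not every library deviated most like the library of its own number. The replicate block called 6498 genes, 3331 higher in BrM3 and 3167 higher in LM2, and 3 interactions. With GC offsets 7332 genes were called. The interaction count was 18 with DESeq2, 0 with filterByExpr, 16 with no filter, 3 with the replicate block, 0 in thinned counts and 15 with GC offsets, and the cause was not tested. That test was recomputed under these settings after the data were seen. With present from 0.5 CPM and absent under 0.05 CPM, 65 and 15 genes were listed, the 15 being those of LM2. CXCL1 gained a call with no filter, the 6 libraries alone and GC offsets. Leaving out a library changed the calls of KRT19, ID1, HBEGF and CXCL1. It also removed those of PSMB10, HLA-DRB5, PRC1 and RPL17, which are counted in their lists. Of the genes picked by the naming rules, 2 lost their calls in thinned counts and 1 with the 6 libraries alone. In the shallowest LM2 library 0.1 CPM is under the floor of 3 counts, so expression near that level was not detectable at this depth.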
